A study of Danio rerio with 7 samples.

Results

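Genes of the endoplasmic reticulum stress response were followed in whole zebrafish larvae of a line that overexpresses CD36, a cell surface protein through which cells import fatty acids. The list held 34 names, matched to the gene symbol of the deposited tables. Of these, 32 had a row in the tables of all genes and all 32 passed the filter on low values (20906 of 29567 genes passed). The name chac1 was found in the abundance files of the single libraries, so it is given in TPM, and vimp is a synonym of selenos, which was counted under that symbol.

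The 7 libraries fell into 3 groups, all of the CD36 overexpression genotype and all at 15 days post fertilization. Larvae fed a high-fat diet (24%) and then exposed to CACF at 40 µg/ml gave 2 libraries, fish 2 and fish 4. Larvae fed the high-fat diet gave 2 libraries, fish 2 and fish 4. Larvae fed the normal diet (12%), the control of the series, gave 3 libraries, fish 1, fish 2 and fish 4. Feeding started at 5 days, and after the last meal larvae were held in E3, the saline used for zebrafish embryos, from 4 pm to 9 am, with or without CACF. The series asks whether CACF acts on lipid accumulation and liver cancer formation in this line. The labels do not spell out CACF, do not name the promoter of the transgene, and do not say whether a library is 1 larva or a pool or whether the fish of a group shared parents. The p-values therefore speak only for how far these libraries differ among themselves, which may be technical. No library lacks the transgene, so the overexpression itself cannot be checked. Levels are given as normalized counts, the reads of a gene divided by the authors' size factor of the library. The zebrafish cd36 gene had 169 and 154 normalized counts with CACF, 607 and 448 on the high-fat diet, and 3215, 172 and 223 on the normal diet.

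The endoplasmic reticulum is where secreted and membrane proteins are folded, and unfolded proteins there are sensed by 3 transmembrane proteins. IRE1 (ern1) splices the mRNA of xbp1, PERK (eif2ak3) slows translation while favouring the translation of ATF4, and ATF6 is cut to release a transcription factor. The factors they activate raise chaperones, disulphide enzymes and the machinery that returns misfolded proteins to the cytosol for degradation, and under lasting stress ATF4 and CHOP (ddit3) raise genes tied to amino acid supply and cell death. Fat overload of liver cells is a known setting of this response. The roles given here were described in mammals or yeast and are attached to the zebrafish genes of the same name. Gene-level counts cannot tell spliced from unspliced xbp1, and they do not report the translation of ATF4 or the cleavage of ATF6.

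Reads per library ranged from 12699552 to 22543693. The high-fat diet + CACF fish 2 and normal diet fish 1 libraries stood apart from the rest, with a median correlation to the other 6 libraries of 0.858 and 0.877, against 0.918 to 0.930 for the other 5. Immediate early genes (22 of 23 listed) summed to 47372 normalized counts in high-fat diet + CACF fish 2 and 109255 in normal diet fish 1, against 8594 to 11564 in the others. Cytosolic heat shock genes (26 of 27 listed) summed to 126263 in normal diet fish 1, against 55754 to 72871 in the others, and the inducible hsp70l had 25734 normalized counts there, against 84.1 to 375 elsewhere. Mitochondrial genes took 28.2% and 20.9% of reads with CACF, 14% and 10.8% on the high-fat diet, and 17.8%, 10.1% and 7.74% on the normal diet. For most fold changes, medians and counts that moved by over 1.5 times without one or both of these libraries, that value is given as well. The values of chac1, in TPM, were not refitted in this way.

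Levels of different genes were compared in TPM, which allows for gene length. These values are not shares of all transcripts, since assembled loci are listed beside the reference genes. The reference genes summed to between 739551 and 884988 TPM per library. Some genes may lose reads to the assembled loci, which limits the order of genes given here. The most abundant transcripts of the list on this scale were chac1, atf4a and atf4b. They held the first 3 places in every library, in some order. The transcript of chac1, an enzyme that degrades glutathione, had 229 and 116 TPM with CACF, 112 and 159.7 TPM on the high-fat diet and 564, 192 and 154 TPM on the normal diet. The normal diet fish 1 value lay above all others and the groups overlapped. The ranges of chac1, atf4a and atf4b overlapped over the libraries. The level of atf4a stayed between 175 and 201 TPM in the 7 libraries, and that of its paralogue atf4b between 115 and 177 TPM. Reads of the paralogous genes atf4a and atf4b may have been shared between them by the authors' counting. Next came sec61b, a subunit of the channel through which proteins enter the reticulum (mean of 78.5 TPM), xbp1 (77.6 TPM), the disulphide isomerase pdia3 (68.9 TPM) and the main chaperone hspa5, known as BiP (60.8 TPM). The order among sec61b, xbp1, pdia3 and hspa5 was within their spread, since their ranges over the libraries overlapped. At the low end were the stress sensor ern1 (2.22 TPM) and the BiP partner dnajb9a (1.73 TPM). The sensors eif2ak3 and atf6 averaged 6.65 and 7.84 TPM.

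**Figure D1:**
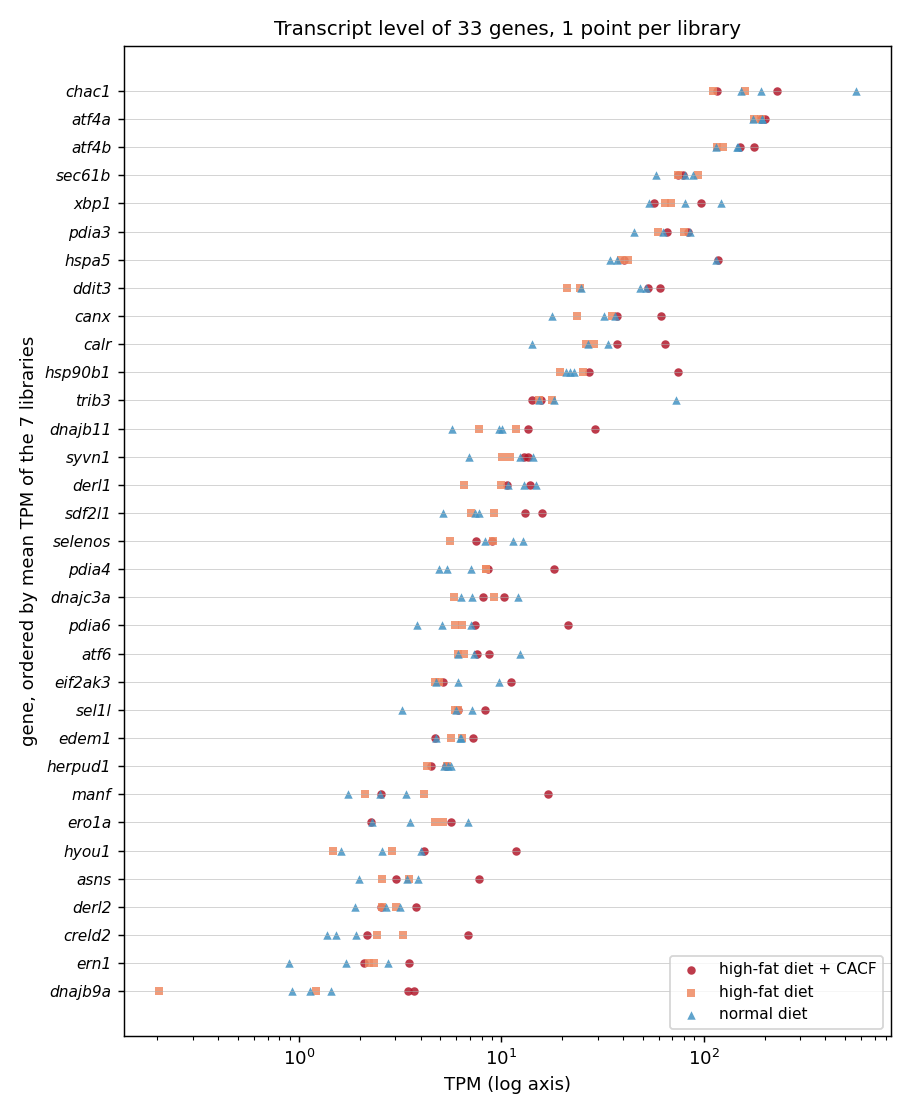
TPM of 33 genes (horizontal log axis) in each of 7 libraries, with genes ordered from the highest mean at the top. Points of high-fat diet + CACF are circles, of high-fat diet squares and of normal diet triangles. chac1, atf4a and atf4b lead, and for trib3 and chac1 1 normal diet library lies to the right of all others (72.7 and 564 TPM).

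None of the 32 genes passed the test in any of the 3 comparisons. In the fit of limma across all genes, on log2(normalized count + 1) with Benjamini-Hochberg adjustment at 0.05, 0 of 32 passed for high-fat diet against normal diet, where 0% of all genes tested passed. For high-fat diet + CACF against normal diet 0 of 32 passed, against 0.148% of all genes, and for high-fat diet + CACF against high-fat diet 0 of 32, against 0.0143%. The smallest adjusted p in limma was 0.785, 0.259 and 0.216 in those comparisons. edgeR and DESeq2 on recovered reads also called 0 of 32 in each. Of all genes with a p, edgeR called 0%, 0.0191% and 0%, and DESeq2 0%, 2.45% and 3.52%. At an unadjusted p under 0.05, in either direction, edgeR gave 1, 5 and 3 of the 32 genes, where 6.43%, 14.1% and 14.8% of all genes were under it. DESeq2 gave 2, 10 and 7, where 5.9%, 11.9% and 12.2% were. The counts of limma, 0, 5 and 3, are given by direction with the list as a whole. The design finds only large changes. In simulated reads for high-fat diet + CACF against normal diet (20385 genes), 2-fold changes were found in 0% of cases, 4-fold ones in 35.8% and 16-fold ones in 86.4%. For high-fat against normal diet these were 0%, 29.85% and 92.3%. For high-fat diet + CACF against high-fat diet they were 0%, 20.9% and 83.3%. Unchanged genes called in these 3 simulations numbered 10, 11 and 8. Each comparison shares the libraries of a group with each of the others, so their values are set side by side and not counted as separate support.

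The clearest feature of these genes was instead a difference between libraries of the same group. Together, high-fat diet + CACF fish 2 and normal diet fish 1 held the highest normalized count of 26 of the 32 genes (81.3%). The share over all genes tested was 44.6%. High-fat diet + CACF fish 2 was highest for 13 genes and normal diet fish 1 for 13 others, against 23.4% and 21.2% of all genes. The 2 sets differed by role. High-fat diet + CACF fish 2 was highest for 7 of 9 chaperones and cofactors and for 4 of 6 lectins and disulphide enzymes. Normal diet fish 1 was highest for all 4 transcription factors and for hspa5 and dnajc3a among the chaperones. It was also highest for 5 of 8 degradation and translocation genes and for trib3. In TPM it kept the highest value only for xbp1, dnajc3a and trib3 of these. On that scale hspa5 (118 against 115 TPM), atf4a and atf4b were highest in high-fat diet + CACF fish 2, and ddit3 in high-fat diet + CACF fish 4. The 5 degradation and translocation genes were highest in other libraries in TPM, and dnajb9a in high-fat diet + CACF fish 4. Among the libraries that did not stand apart, 2 pairs share a group. Between normal diet fish 2 and fish 4, 0 of 32 genes differed by more than 1 on the log2 scale, while 9.95% of all genes tested lay above 1 and 9.36% below -1. Between high-fat diet fish 2 and fish 4, dnajb9a alone did, and it rests on 2 reads in fish 2. For that pair 7.65% of all genes tested lay above 1 and 13.3% below -1.

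**Figure D2:**
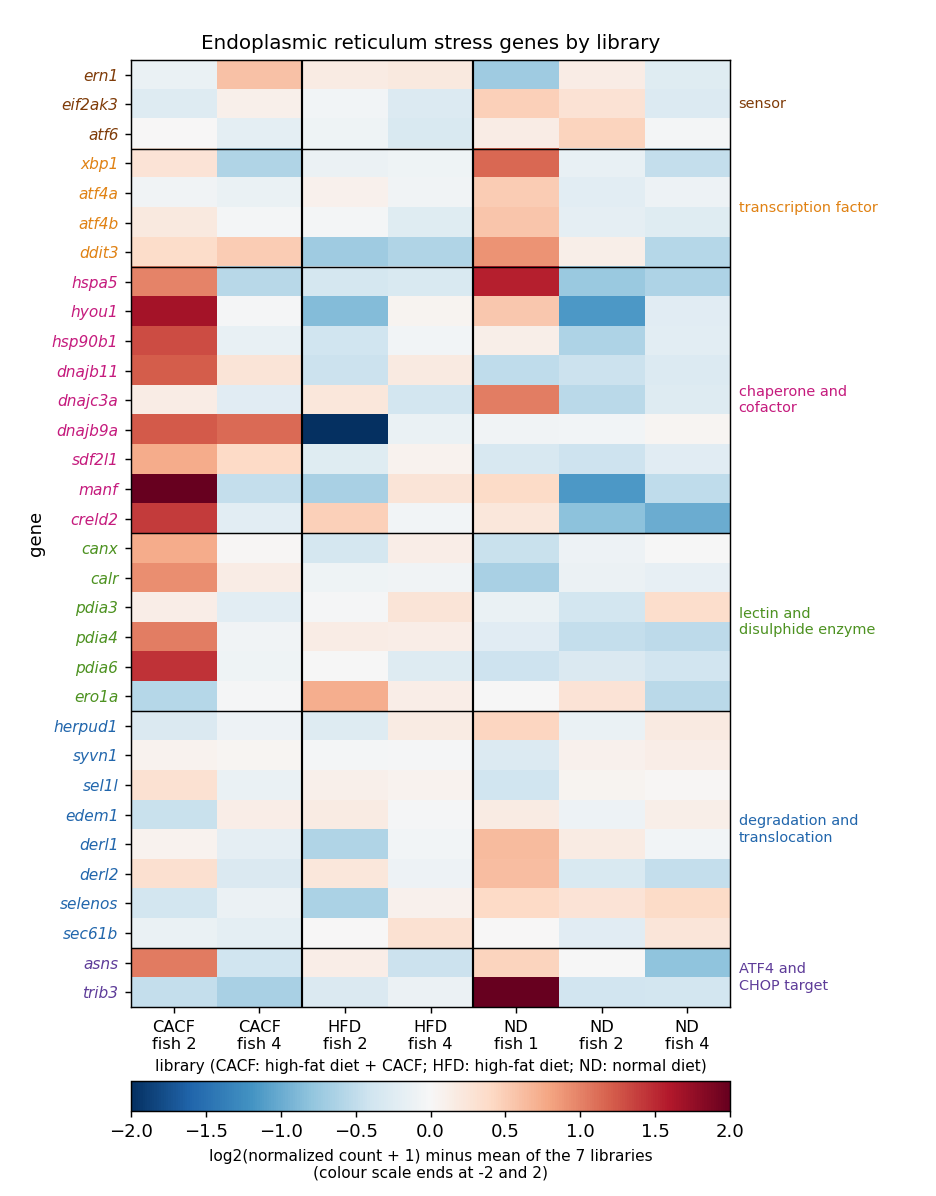
log2(normalized count + 1) of 32 genes minus the gene's mean over the 7 libraries, in colour (red higher, blue lower), with libraries as columns and genes as rows grouped by role. Chaperones and lectin and disulphide enzymes are reddest in high-fat diet + CACF fish 2, the highest library for 13 genes in normalized counts. Transcription factors, hspa5 and trib3 are reddest in normal diet fish 1, the highest for 13 others in normalized counts.

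Among the sensors, ern1 (ENSDARG00000013997, chromosome 3, 55420176 to 55481157, minus strand in GRCz11) had 240.3 and 399 normalized counts with CACF, 296 and 303 on the high-fat diet and 161, 295 and 224 on the normal diet. Both high-fat values lay above the 3 normal diet values by a small margin, and the values with CACF overlapped both other groups. Relative to the normal diet, ern1 had a log2 fold change of 0.44 ± 0.35 (SE) on the high-fat diet and of 0.49 ± 0.35 with CACF (adjusted p = 0.793 and 0.540, limma). Both were smaller without normal diet fish 1, the lowest library for ern1 (0.22 and 0.27), and the value with CACF was 0.85 without high-fat diet + CACF fish 2. The PERK gene eif2ak3 had 350.0 and 446 normalized counts with CACF, 402 and 343 on the high-fat diet and 581, 508 and 346 on the normal diet, with every group overlapping. The third sensor, atf6, had 514 and 447 with CACF, 483 and 414 on the high-fat diet and 565, 697 and 498 on the normal diet. Both high-fat diet values of atf6 lay under the 3 normal diet values, and the CACF values overlapped both other groups, with a log2 fold change on the high-fat diet relative to the normal diet of -0.38 ± 0.25 (adjusted p = 0.785, limma). atf6 overlaps rxrgb on the opposite strand, and no source used here says whether counting used strand. The 95% interval of the log2 fold change between high-fat diet + CACF and high-fat diet was -0.52 to 0.72 for atf6, -0.64 to 0.82 for eif2ak3 and -0.82 to 0.91 for ern1. The median of the 3 sensors for high-fat diet + CACF against normal diet was -0.24 (all genes: -0.00). It turned to 0.19 in TPM (all genes: 0.19), to 0.18 in FPKM (all genes: 0.18) and to 0.09 without high-fat diet + CACF fish 2 and normal diet fish 1. It was -0.08 without normal diet fish 1 and -0.07 without high-fat diet + CACF fish 2. The median for high-fat diet + CACF against high-fat diet was 0.09, and 0.26 without high-fat diet + CACF fish 2, and that for high-fat against normal diet was -0.33, and -0.17 without normal diet fish 1.

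Of the transcription factors, ddit3 (ENSDARG00000059836, chromosome 6, 58915889 to 58919086, plus strand in GRCz11), which encodes the death-linked factor CHOP, showed the largest separation. It had 1083 and 1187 normalized counts with CACF, 510.0 and 549 on the high-fat diet and 1559.9, 908 and 565 on the normal diet. The 2 CACF libraries were close to each other and both were above both high-fat libraries, which in turn lay below all 3 normal diet libraries. Between high-fat diet + CACF and high-fat diet, ddit3 had a log2 fold change of 1.1 ± 0.42 (95% interval 0.15 to 2.05, unadjusted p = 0.0286, adjusted p = 0.255, limma). It was 1.16 without high-fat diet + CACF fish 2 and 1.03 without fish 4. For high-fat against normal diet it was -0.81 ± 0.38 (unadjusted p = 0.0643, adjusted p = 0.785, limma), and -0.44 without normal diet fish 1. Against the normal diet, larvae with CACF differed by 0.29 ± 0.38. In TPM both CACF values (53.3 and 60.6) lay above the normal diet values (51.6, 48.5 and 24.9). In normalized counts the values overlapped through normal diet fish 1, the only normal diet library above both CACF values. Without that library the difference was 0.66 (unadjusted p = 0.0428, adjusted p = 0.430, limma), and 0.73 without it and high-fat diet + CACF fish 2 (adjusted p = 0.999), but -0.07 without normal diet fish 4 (adjusted p = 0.953).

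The transcript of xbp1 (ENSDARG00000035622, chromosome 5, 15944411 to 15948920, minus strand in GRCz11), the target of IRE1 splicing, had 2468 and 1351 normalized counts with CACF, 1879 and 1925 on the high-fat diet and 4513, 1836 and 1472 on the normal diet. The groups overlapped, and the value of normal diet fish 1 was 2.74-fold that of the other normal diet libraries (their geometric mean, on the scale of normalized count + 1). With CACF, relative to the high-fat diet, xbp1 had a log2 fold change of -0.06 ± 0.51, and of -0.49 without high-fat diet + CACF fish 2. atf4a had 4058 and 3868 with CACF, 4528 and 4030.2 on the high-fat diet and 6016, 3671 and 3959.7 on the normal diet. atf4b had 4937 and 4192 with CACF, 4179 and 3655 on the high-fat diet and 6299, 3785 and 3631 on the normal diet. For atf4a the groups overlapped in every comparison. For atf4b both CACF values lay just above both high-fat values (0.22 ± 0.31, adjusted p = 0.794, limma, and 0.10 without high-fat diet + CACF fish 2). The median log2 fold change of the 4 factors was -0.23 for high-fat against normal diet, -0.06 for high-fat diet + CACF against normal diet and 0.08 for high-fat diet + CACF against high-fat diet. The second turned to 0.20 under quantile normalization, 0.17 in TPM and 0.18 in FPKM, and also to 0.22 without normal diet fish 1, 0.13 without high-fat diet + CACF fish 4 and 0.10 without normal diet fish 1 and high-fat diet + CACF fish 2, while it was -0.14 without high-fat diet + CACF fish 2 alone. The first turned to 0.12 without normal diet fish 1, and the third to -0.02 without high-fat diet + CACF fish 2. For high-fat diet + CACF against normal diet, the median of all genes was 0.08 under quantile normalization, 0.19 in TPM and 0.18 in FPKM.

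hspa5 (ENSDARG00000103846, chromosome 5, 2713779 to 2721686, minus strand in GRCz11) encodes BiP, the chaperone that holds the sensors inactive and is itself a classical target of the response. It had 3862 and 1324 normalized counts with CACF, 1513 and 1567 on the high-fat diet and 5701, 1163 and 1265 on the normal diet. The values of high-fat diet + CACF fish 2 and normal diet fish 1 were high and the 5 remaining libraries lay between 1163 and 1567. The high-fat diet + CACF fish 2 value was 2.91-fold that of fish 4, and normal diet fish 1 was 4.70-fold the other normal diet libraries. The log2 fold changes of hspa5 were -0.40 ± 0.69 for high-fat against normal diet, 0.15 ± 0.69 for high-fat diet + CACF against normal diet and 0.55 ± 0.75 for high-fat diet + CACF against high-fat diet, none past the test. Without normal diet fish 1 and high-fat diet + CACF fish 2 they were 0.34, 0.13 and -0.22, so the first and the third changed sign.

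Other members of the chaperone group were higher in high-fat diet + CACF fish 2 without a like value in normal diet fish 1. dnajb11 (ENSDARG00000015088, chromosome 9, 32641026 to 32648725, minus strand in GRCz11), the ERdj3 cochaperone that delivers substrates to BiP, had 693 and 358 normalized counts with CACF, 222 and 337 on the high-fat diet and 209, 222 and 247 on the normal diet. Both CACF libraries lay above all 5 others. Its log2 fold change was 1.14 ± 0.34 against the normal diet (unadjusted p = 0.00960, adjusted p = 0.259, limma) and 0.86 ± 0.38 against the high-fat diet (unadjusted p = 0.0491, adjusted p = 0.311). Without high-fat diet + CACF fish 2 these were 0.67 and 0.39. sdf2l1, which works with ERdj3, had 352 and 277 with CACF, 179 and 221 on the high-fat diet and 169, 158 and 180.5 on the normal diet, again with both CACF libraries above all others. Against the normal diet it had a log2 fold change of 0.88 ± 0.28 (unadjusted p = 0.0113, adjusted p = 0.270, limma), and 0.71 without high-fat diet + CACF fish 2. dnajb11 overlaps rabl3, and sdf2l1 overlaps ydjc, each on the opposite strand.

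dnajb9a, the ERdj4 cochaperone of BiP that also represses IRE1, was the least abundant gene of the list and the one with the largest fold change. It had 35.7 and 33.6 normalized counts with CACF, 2.55 and 13.4 on the high-fat diet and 14.1, 14.1 and 15.2 on the normal diet. The CACF values stood above all others, and the high-fat values lay below the normal diet values, fish 4 by less than 1 count. The underlying reads were 43 and 46 with CACF, 2 and 13 on the high-fat diet and 16, 19 and 18 on the normal diet, so the difference from the high-fat diet leans on a library with 2 reads. With CACF its log2 fold change was 2.32 ± 0.79 relative to the high-fat diet (95% interval 0.52 to 4.12, unadjusted p = 0.0175, adjusted p = 0.216, limma) and 1.21 ± 0.72 against the normal diet (adjusted p = 0.480).

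manf, a secreted factor that protects stressed cells, had 402 and 64.4 normalized counts with CACF, 57.4 and 109 on the high-fat diet and 118, 40.2 and 63.3 on the normal diet. The fish 2 value with CACF was 6.17 times that of fish 4, which lay between the high-fat values. hyou1, the exchange factor of BiP, had 656 and 204 with CACF, 113 and 216 on the high-fat diet and 301, 93.0 and 177 on the normal diet. Its CACF fish 2 value was 3.2-fold that of fish 4, which lay within the range of the high-fat and normal diet libraries, and the log2 fold change of hyou1 relative to the high-fat diet was 1.22 ± 0.67 (adjusted p = 0.425, limma). This was 0.38 without high-fat diet + CACF fish 2 and 2.06 without fish 4. hsp90b1, the HSP90 of the reticulum, had 2906 and 1055 with CACF, 885 and 1127 on the high-fat diet and 1269.9, 762 and 1015 on the normal diet, and its groups overlapped in the same way. creld2, a small stress-inducible protein of the reticulum, had 146 and 47.5 with CACF, 76.5 and 52.7 on the high-fat diet and 64.2, 30.5 and 27.0 on the normal diet. The fish 4 value of creld2 with CACF lay below both high-fat values. dnajc3a, a BiP cochaperone that inhibits PERK, followed normal diet fish 1, with 284 and 220.1 normalized counts with CACF, 299.6 and 198 on the high-fat diet and 520.2, 176 and 215 on the normal diet.

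Over the 9 chaperones and cofactors, the median log2 fold change was 1.1 for high-fat diet + CACF against normal diet, 0.81 for high-fat diet + CACF against high-fat diet and 0.01 for high-fat against normal diet, where the medians of all genes tested were -0.00, -0.01 and -0.05. The first was 0.26 without high-fat diet + CACF fish 2, and 0.61 without that library and normal diet fish 1. The second was 0.08 without either that library or both. The first and second were positive under TMM scaling, quantile normalization, TPM and FPKM (0.81 to 1.13), and the third turned to -0.02 under quantile normalization and was 0.28 without normal diet fish 1. Exocrine pancreas markers, from a cell type rich in endoplasmic reticulum, differed between libraries: 26 of 31 listed genes summed to 290.1 and 2414 normalized counts with CACF, 5469 and 14422 on the high-fat diet, and 32757, 2447 and 29057 on the normal diet. prss1 and ctrb1 were above 0 in every library and 9 of the others were at 0 in at least 1. High-fat diet + CACF fish 2, with the lowest of these sums, had the highest summed level of the 9 chaperones (9336 normalized counts). Normal diet fish 1, with the highest, had the next (8366). Of these, hspa5 alone had 3862 and 5701. In summed TPM the pancreas markers were highest in normal diet fish 4 (1755), ahead of normal diet fish 1 (1500). The part of the pancreas markers in the result was not tested. In whole larvae, fewer cells of a type and less RNA per cell cannot be told apart.

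**Figure D3:**
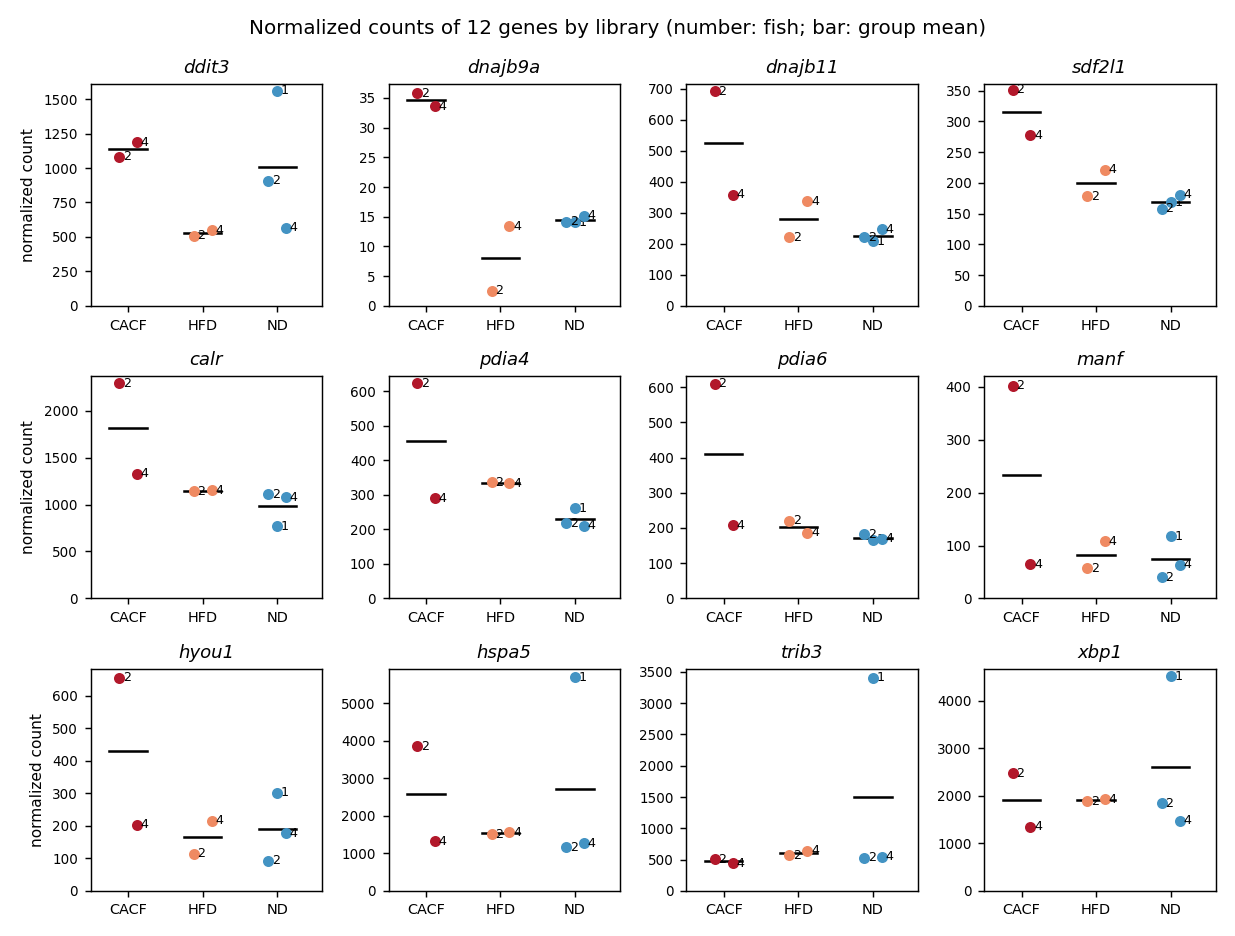
Normalized counts of 12 genes, 1 point per library labelled with its fish number, for high-fat diet + CACF (CACF), high-fat diet (HFD) and normal diet (ND), with a bar at the group mean. ddit3 and dnajb9a have close CACF values above both high-fat values, the means of manf, hyou1, pdia4 and pdia6 with CACF are carried by fish 2, and trib3, hspa5 and xbp1 peak in normal diet fish 1 (3404, 5701 and 4513).

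Of the 6 lectin and disulphide enzymes, 4 had both CACF values above all normal diet values, where 16.3% of all genes did. Of the others, pdia3 overlapped throughout and ero1a did not share that pattern. Against the high-fat diet, 1 of the 6 was higher and 1 lower without overlap, where 24.8% and 23.2% of all genes were. calr (ENSDARG00000076290, chromosome 8, 16582339 to 16592491, minus strand in GRCz11), the lectin calreticulin that holds newly made glycoproteins, had 2292 and 1329 normalized counts with CACF, 1141 and 1153 on the high-fat diet and 766, 1112 and 1079.5 on the normal diet. Every CACF value exceeded every other value, with a log2 fold change of 0.84 ± 0.29 against the normal diet (unadjusted p = 0.0193, adjusted p = 0.295, limma) and 0.60 ± 0.32 against the high-fat diet. Without high-fat diet + CACF fish 2 these were 0.45 and 0.21. The disulphide isomerase pdia4 had 624 and 289.6 with CACF, 337 and 334 on the high-fat diet and 261, 218 and 211 on the normal diet. Both high-fat groups lay above the normal diet, and high-fat diet + CACF fish 4 lay below both high-fat libraries. Against the normal diet pdia4 had a log2 fold change of 0.89 ± 0.34 with CACF (unadjusted p = 0.0305, adjusted p = 0.329, limma) and 0.55 ± 0.34 on the high-fat diet alone (adjusted p = 0.785). The value with CACF was 0.34 without high-fat diet + CACF fish 2.

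pdia6, an isomerase that also binds the sensors, had 609 and 208 normalized counts with CACF, 221 and 186 on the high-fat diet and 167, 182 and 169.5 on the normal diet. The fish 2 value with CACF stood alone, and fish 4 lay within the high-fat values. The log2 fold change against the normal diet was 1.04 ± 0.43 (unadjusted p = 0.0377, adjusted p = 0.341, limma). It was 0.27 without high-fat diet + CACF fish 2, and 1.81 without fish 4, where it passed with an adjusted p of 0.0448, the sole gene of the list to do so when 1 library was left out. canx, the membrane-bound lectin calnexin, had 3665 and 2238 with CACF, 1709.8 and 2415 on the high-fat diet and 1610, 2038 and 2184 on the normal diet. Both CACF values of canx were above the normal diet values and overlapped the high-fat values. pdia3, which works with both lectins, had 2074 and 1638 with CACF, 1872 and 2260 on the high-fat diet and 1722, 1461 and 2406 on the normal diet, with overlap throughout. ero1a, the oxidase that recharges the isomerases, stood apart from the others of its role, with 78.1 and 116 with CACF, 195 and 129 on the high-fat diet and 117, 141 and 80.1 on the normal diet. Its CACF values were below both high-fat values (-0.73 ± 0.43, adjusted p = 0.448, limma, and -0.45 without high-fat diet + CACF fish 2). The median log2 fold change of the 6 was 0.71 for high-fat diet + CACF against normal diet, 0.42 against high-fat diet and 0.23 for high-fat against normal diet. Without high-fat diet + CACF fish 2 the first 2 were 0.24 and -0.08, and without that library and normal diet fish 1 they were 0.18 and -0.08.

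The 8 degradation and translocation genes had median log2 fold changes of -0.20 for high-fat diet + CACF against normal diet, -0.03 for high-fat diet + CACF against high-fat diet and -0.01 for high-fat against normal diet. All turned positive in TPM (0.03, 0.15 and 0.02) and in FPKM (0.04, 0.08 and 0.08), and the second also under quantile normalization (0.04). The medians of all genes were 0.19, 0.16 and -0.03 in TPM, and 0.18, 0.07 and 0.06 in FPKM. For the second it was -0.03 under quantile normalization. selenos, a membrane selenoprotein that anchors the extraction machinery, had 377 and 448 normalized counts with CACF, 315 and 518 on the high-fat diet and 642, 590.2 and 639 on the normal diet. All 4 libraries of high-fat fed larvae lay below all 3 of the normal diet. In TPM they overlapped, since normal diet fish 1 (8.32) lay below high-fat diet + CACF fish 4 (9.02) and high-fat diet fish 4 (9.07). On normalized counts the log2 fold change of selenos was -0.62 ± 0.27 on the high-fat diet relative to the normal diet (unadjusted p = 0.05004, adjusted p = 0.785, limma). This was the smallest p of the list in that comparison. For high-fat diet + CACF against normal diet the log2 fold change was -0.60 ± 0.27 (unadjusted p = 0.0585, adjusted p = 0.380, limma). derl1, a derlin of the channel that exports misfolded proteins, had 368 and 309 with CACF, 229.5 and 338 on the high-fat diet and 545, 390.0 and 337 on the normal diet. The groups of derl1 overlapped by less than 1 count between the high-fat and normal diet, at -0.58 ± 0.31 (adjusted p = 0.785, limma), and -0.38 without normal diet fish 1.

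The remaining genes of this role differed by up to 2.13-fold between the highest and the lowest library in normalized counts. The ubiquitin ligase gene syvn1 ranged from 384 to 509, the narrowest of the list on that scale (1.32-fold between the highest and the lowest library). In TPM syvn1 spanned 2.06-fold, and atf4a was the narrowest (1.15-fold). sel1l, the partner of syvn1, ranged from 308 to 499.6 normalized counts. The stress-inducible herpud1 ranged from 372 to 612, edem1, which marks glycoproteins for disposal, from 227 to 350, and derl2 from 158 to 337. herpud1 overlaps cetp on the same strand, so reads of these genes may be shared. sec61b ranged from 1009 to 1465, and both its CACF values (1081 and 1029) were below both high-fat values (1195 and 1465), at -0.33 ± 0.26 (adjusted p = 0.592, limma). At the other end, the highest library exceeded the lowest by 10.01-fold for manf and by 14.02-fold for dnajb9a.

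The genes downstream of ATF4 and CHOP followed single libraries. trib3 (ENSDARG00000016200, chromosome 11, 24058530 to 24063196, minus strand in GRCz11), a pseudokinase that CHOP induces and that inhibits Akt, had 503 and 443 normalized counts with CACF, 571 and 643 on the high-fat diet and 3404, 533 and 542 on the normal diet. Normal diet fish 1 was 6.32-fold the other normal diet libraries, and the other 6 libraries lay between 443 and 643. Both CACF values were below all others, at -1.07 ± 0.71 against the normal diet (adjusted p = 0.514, limma), and -0.28 without normal diet fish 1 and high-fat diet + CACF fish 2. In the authors' deposited table trib3 had the smallest adjusted p of the list, 0.246 for CACF and 0.714 for the high-fat diet, each against the normal diet, and 0 of the 32 genes were under 0.05. Of the 29567 genes there, 278 were under 0.05 for CACF and 60 for the high-fat diet. asns, the asparagine synthetase induced by ATF4, had 362 and 132 with CACF, 193 and 130.2 on the high-fat diet and 239.9, 175 and 99.5 on the normal diet. The fish 2 library with CACF was highest and the groups overlapped. For chac1, in TPM, the log2 fold change on log2(TPM + 1) was -0.93 for high-fat against normal diet, -0.65 for high-fat diet + CACF against normal diet and 0.29 with CACF relative to the high-fat diet (limma, adjusted p = 0.99965, 0.636 and 0.929). chac1 overlaps ino80 on the opposite strand.

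Taking the 32 genes as a list, high-fat against normal diet gave 16 genes above 0, where 46% of all genes tested were above 0, and a median of -0.01 (all genes: -0.05), which was 0.01 in TPM and 0.08 in FPKM. In TPM the median of all genes was -0.03 in that comparison, and itself shifted to 0.19 for high-fat diet + CACF against normal diet and 0.16 against the high-fat diet. In FPKM these medians of all genes were 0.06, 0.18 and 0.07. On the high-fat diet, relative to the normal diet, 5 genes were higher without overlap, where 11.5% of all genes were, and 4 were lower without overlap, where 14.1% were. At an unadjusted p under 0.05, 0 were higher and 0 lower, where 1.37% and 4.67% of all genes were. For high-fat diet + CACF against normal diet, 20 were above 0 (50% of all genes) with a median of 0.11 (all genes: -0.00), 7 were higher without overlap (16.3% of all genes) and 2 lower (16.7%). At an unadjusted p under 0.05, 5 were higher, namely dnajb11, sdf2l1, calr, pdia4 and pdia6, which is 15.6% of the list where 5.14% of all genes were, and 0 were lower, where 8.59% were. These 5 became 0 without high-fat diet + CACF fish 2, 7 without normal diet fish 1, 10 without high-fat diet + CACF fish 4, and 0 without both libraries that stood apart. The share of all genes that were higher at that p was 0.679%, 4.16%, 6.03% and 0.732% in those 4 fits. For high-fat diet + CACF against high-fat diet, 23 were above 0 (49.3% of all genes) with a median of 0.16 (all genes: -0.01), 7 were higher without overlap (24.8%) and 3 lower (23.2%). At an unadjusted p under 0.05, 3 were higher, namely dnajb9a, ddit3 and dnajb11, which is 9.38% of the list and near the 9.71% of all genes, and 0 were lower, where 6.24% were. Without high-fat diet + CACF fish 2 these were 0, where 4.25% of all genes were higher, and without fish 4 they were 8, where 9.27% were. They were 2 without normal diet fish 1 (10.3% of all genes) and 1, ddit3, without both libraries that stood apart (4.74%). The median of the 32 genes without both was 0.17 for high-fat against normal diet, 0.12 for high-fat diet + CACF against normal diet and 0.02 for high-fat diet + CACF against high-fat diet.

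**Figure D4:**
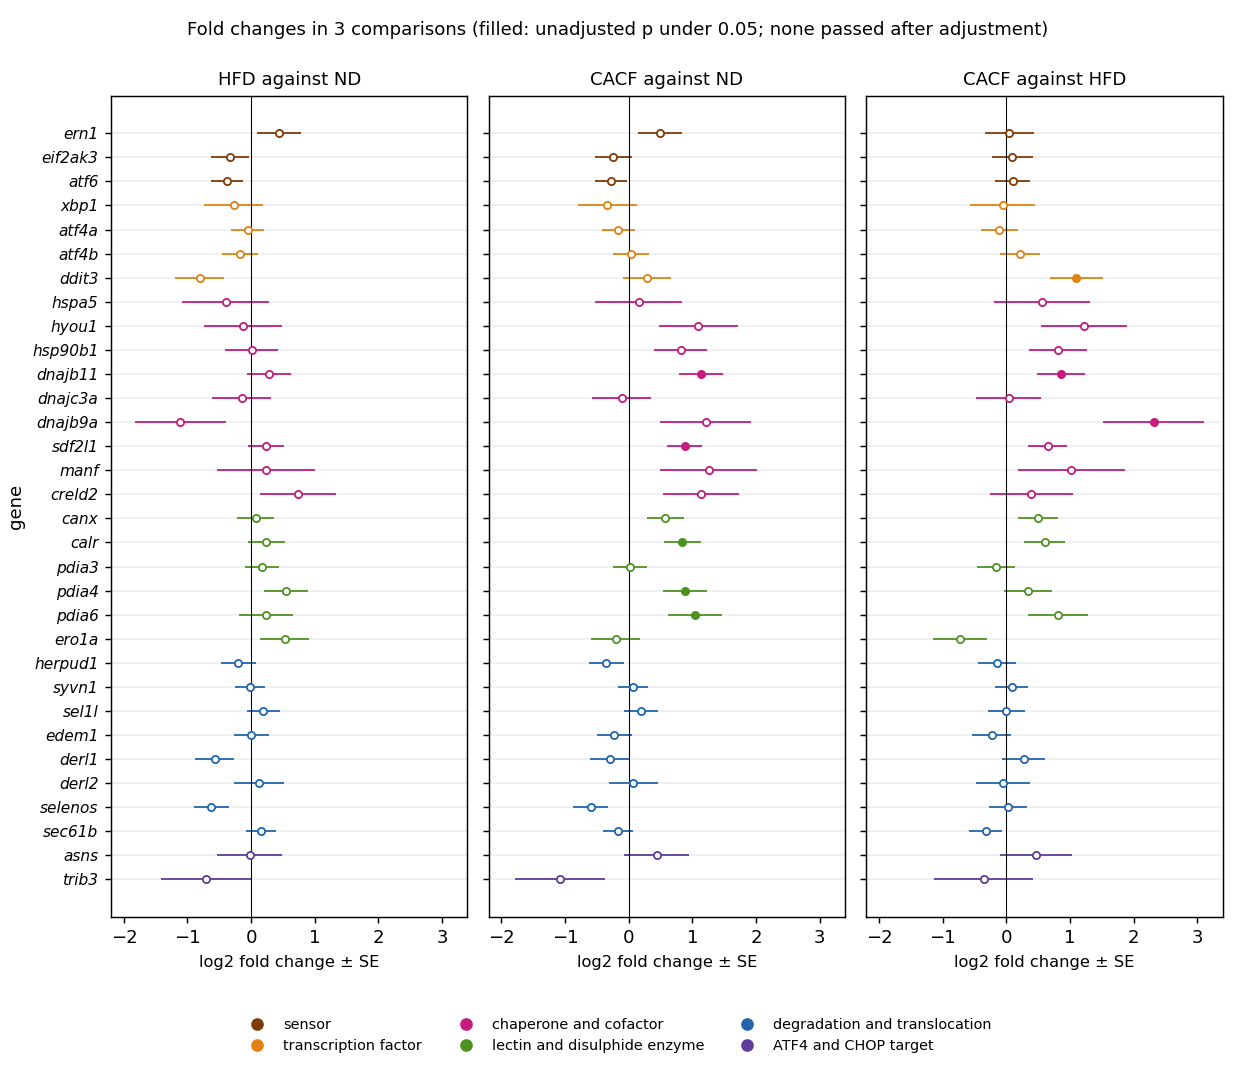
log2 fold change ± SE (horizontal axis) of 32 genes, grouped by role in colour, for high-fat diet against normal diet (HFD against ND), high-fat diet + CACF against normal diet (CACF against ND) and high-fat diet + CACF against high-fat diet (CACF against HFD). Filled points have an unadjusted p under 0.05 (0, 5 and 3 genes) and none passed after adjustment.

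Libraries of 1 group also differed for many of these genes. High-fat diet + CACF fish 2 exceeded fish 4 by more than 1 on the log2 scale for 8 of 32 genes (25%), against 8.32% of all genes tested, and lay more than 1 below it for 0, against 15.0% of all genes. Among the 9 chaperones and cofactors the median of this difference was 1.46, and all 9 were above 0. Normal diet fish 1 exceeded the mean of fish 2 and fish 4 by more than 1 for 9 of 32 genes (28.1%), against 14.9% of all genes, and lay more than 1 below it for 0, against 6.64%. Both differences were above 1 for hspa5, hyou1, manf and creld2, 4 of 32 genes, against 3.12% of all genes. In the lectin and disulphide enzymes the 2 libraries parted: the median was 0.75 for high-fat diet + CACF fish 2 minus fish 4 and -0.10 for normal diet fish 1 minus the others, and calr, canx and pdia6 were lowest of all libraries in normal diet fish 1. The same 2 libraries carried the high immediate early gene sums, and for normal diet fish 1 the high heat shock sum, given above, and the part of these in the result was not tested.

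**Figure D5:**
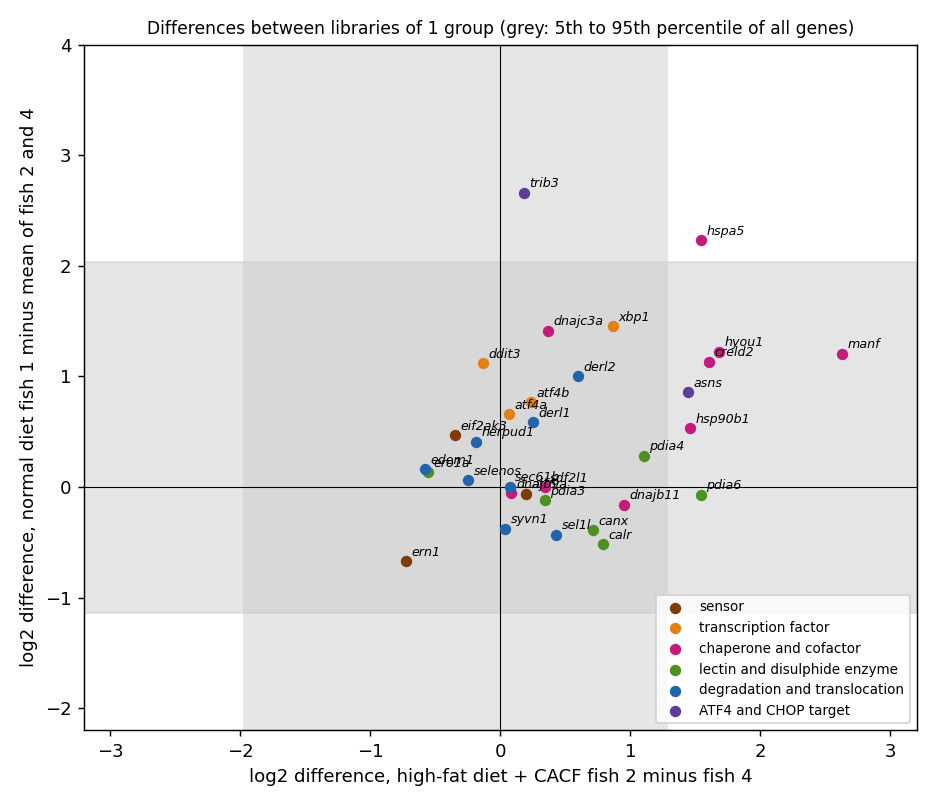
Difference in log2(normalized count + 1) between libraries of 1 group for 32 genes: high-fat diet + CACF fish 2 minus fish 4 on the horizontal axis and normal diet fish 1 minus the mean of fish 2 and fish 4 on the vertical axis, coloured by role. Grey bands span the 5th to 95th percentile of all genes tested (-1.97 to 1.28 horizontally, -1.14 to 2.03 vertically), and hspa5 lies outside both bands. To the right of the horizontal one lie also manf, hyou1, creld2, pdia6, hsp90b1 and asns, and trib3 lies above the vertical one.

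A wider list of 192 other genes of the pathway in the tables (188 tested) also gave 0 past the test in each comparison with limma and with edgeR. DESeq2 called 0, 5 and 2 of them, where it called 0%, 2.45% and 3.52% of all genes. At an unadjusted p under 0.05 in limma, 1 of the 188 was higher and 7 lower for high-fat against normal diet. For high-fat diet + CACF 9 were higher and 11 lower against normal diet, and 9 higher and 6 lower against high-fat diet. As shares of the 188 these were 0.532% and 3.72%, 4.79% and 5.85%, and 4.79% and 3.19%, each below the share of all genes (1.37% and 4.67%, 5.14% and 8.59%, and 9.71% and 6.24%). Among 43 other folding and quality control genes, 34 were above 0 for high-fat diet + CACF against normal diet, with a median of 0.38, and 7 were higher and 1 lower at an unadjusted p under 0.05. Of the 43, 79.1% were above 0 and 16.3% higher at that p, where 50% and 5.14% of all genes were. These shares, and the other counts and medians of the wider list, are given with all 7 libraries only. How far they rest on high-fat diet + CACF fish 2 or normal diet fish 1 is therefore not shown. Among 29 other degradation genes 11 were above 0 in that comparison, with a median of -0.15 and 0 higher and 4 lower at that p, which is 13.8% of them where 8.59% of all genes were lower. The 32 translocation and glycosylation genes had a median of 0.18 there, the 45 genes of the integrated stress response and cell death -0.10, and the 39 other transducers and trafficking genes -0.00.

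The smallest p of this wider list belonged to nupr1b, a small stress-inducible nuclear protein downstream of ATF4. It had 139.7 and 221 normalized counts with CACF, 394 and 449.5 on the high-fat diet and 1125, 578 and 511 on the normal diet. The 3 groups did not overlap, with CACF lowest and normal diet highest. Its log2 fold change was -1.97 ± 0.38 with CACF relative to the normal diet (unadjusted p = 6.42e-04, adjusted p = 0.107, limma) and -1.26 ± 0.42 relative to the high-fat diet (adjusted p = 0.209). The value against the normal diet was -1.30 without normal diet fish 1 and high-fat diet + CACF fish 2. derl3, a derlin, had 57.4 and 81.9 with CACF, 99.5 and 72.3 on the high-fat diet and 317, 214 and 178 on the normal diet. All 4 libraries of high-fat fed larvae lay below all 3 of the normal diet, at -1.73 ± 0.38 with CACF and -1.42 ± 0.38 on the high-fat diet alone (adjusted p = 0.153 and 0.785, limma).

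slc7a5, an amino acid transporter that ATF4 induces, had 141 and 56.3 normalized counts with CACF, 0 and 6.2 on the high-fat diet and 36.9, 20.8 and 9.28 on the normal diet. The groups did not overlap, and the high-fat diet values rest on 0 and 6 reads. Relative to the high-fat diet, its log2 fold change with CACF was 5.07 ± 1.07 (adjusted p = 0.115, limma), a value that depends on the pseudocount of 1, and -2.93 ± 0.97 on the high-fat diet relative to the normal diet (adjusted p = 0.785). The translocation channel subunit sec61g had 423 and 881 with CACF, 1376 and 1237 on the high-fat diet and 1334, 1418 and 1467 on the normal diet, with both CACF values under all others (-1.20 ± 0.31 against the normal diet, adjusted p = 0.215, limma, and -0.67 without high-fat diet + CACF fish 2). ufd1l, part of the complex that extracts misfolded proteins, had 556 and 849 with CACF, 1272 and 1111 on the high-fat diet and 1195, 1193 and 1441 on the normal diet, and again both CACF values lay under all others.

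pdia2, an isomerase of the exocrine pancreas in mammals, had 3.33 and 18.3 normalized counts with CACF, 30.6 and 57.9 on the high-fat diet and 106, 29.8 and 75.1 on the normal diet. It was lowest in high-fat diet + CACF fish 2 and highest in normal diet fish 1, as were the pancreas marker sums in normalized counts given above. calr3b, a calreticulin paralogue, had 387 and 92.9 with CACF, 28.1 and 47.5 on the high-fat diet and 80.0, 50.6 and 54.0 on the normal diet, with fish 2 carrying the CACF mean. slc33a1, the acetyl-CoA transporter of the reticulum, had 79.8 and 61.4 with CACF, 23.0 and 44.4 on the high-fat diet and 24.6, 18.6 and 18.6 on the normal diet, with both CACF values above all others (1.73 ± 0.50 against the normal diet, adjusted p = 0.245, limma). For high-fat diet + CACF against high-fat diet, the signal peptidase subunit gene spcs2 had 259 and 108 against 66.3 and 59.9, and the cochaperone gene dnajb12b had 175 and 140.4 against 51 and 84.7 (adjusted p = 0.206 and 0.208, limma).

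For high-fat against normal diet the other genes with the smallest p were creb3l2, a membrane-bound transcription factor (-1.05 ± 0.39), the ubiquitin-conjugating enzyme gene ube2j1 (-0.85 ± 0.32), the thioredoxin-related isomerase gene tmx3a (0.81 ± 0.31) and the CREB3 regulator gene crebrf (-1.44 ± 0.58). tmx3a had 794 and 513 normalized counts on the high-fat diet and 329, 398 and 367 on the normal diet, and was the only one of these 4 that was higher. ube2j1 had 91.8 and 109 on the high-fat diet and 187, 186 and 168 on the normal diet, without overlap. Their adjusted p was 0.785 each in limma.

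Other cell type markers were present in every group. Hepatocyte genes (26 of 27 listed, hp at 0 in at least 1 library) summed to 22733 and 26126 normalized counts with CACF. They summed to 26759 and 46320 on the high-fat diet, and to 56934, 11346 and 39878 on the normal diet. Enterocyte and goblet cell genes (21 of 23, muc2.2 at 0 in at least 1 library) summed to 3431 and 6236 with CACF. They summed to 13636 and 14249 on the high-fat diet, and to 64808, 4672 and 9604 on the normal diet. Connective tissue genes (17 of 17, 3 of them at 0 in at least 1 library) summed to 22790 and 22329 with CACF. They summed to 14738 and 28113 on the high-fat diet, and to 16237, 15811 and 29060 on the normal diet. Leukocyte genes (14 of 17, with lyz and 2 others at 0 in at least 1 library) summed to 368 and 1021 with CACF. They summed to 737 and 1685 on the high-fat diet, and to 3288, 807 and 1289 on the normal diet. The high sum of normal diet fish 1 was not shared by all genes of this list. There ptprc, mpeg1.1, mpx and lyz had 118, 27.2, 34.3 and 0 normalized counts. Each lay below its highest value elsewhere (238, 61.6, 80.4 and 7.65). In normalized counts normal diet fish 1 thus had the highest hepatocyte, enterocyte and goblet cell, and leukocyte sums of all libraries. Its connective tissue sum was not the highest. In TPM only its enterocyte and goblet cell sum was highest (2048). Its hepatocyte sum (1932 TPM) lay below normal diet fish 4 (2097) and high-fat diet fish 4 (2514). Its leukocyte sum (73.9 TPM) lay below high-fat diet fish 4 (83.3). The lens crystallin gene crygn2 had 56757 normalized counts in normal diet fish 1, against 428 to 932 elsewhere. The part of these markers in the results of the stress genes was not tested.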

How the data were processed

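RNA of 7 zebrafish libraries was prepared with NucleoSpin RNA and the TruSeq stranded mRNA kit, per the labels' protocols. The submitters' processing notes list, without versions, HISAT2 and Trimmomatic beside FastQC and DESeq2. The deposited tables hold normalized counts (a signal: reads divided by 1 size factor per library, by the authors), with the authors' log2 fold changes, standard errors and test statistics (scores), and p-values. Dividing by the smallest step returned whole reads for 100% of values, within 0.001. The abundance files deposited per library hold TPM (a signal here, since assembled loci and reference genes are listed together) and FPKM by the authors, on GRCz11 per the file names.

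Genes with at least 10 normalized counts in at least 2 libraries (20906) were tested with limma 3.58.1 (R 4.3.3), with a variance trend, on log2(normalized count + 1), with all 7 libraries in 1 fit (4 residual degrees of freedom) and Benjamini-Hochberg adjustment at 0.05. Fold changes on this scale understate the change of low genes. The scripts were tested on simulated reads with 200 changed genes. Alternatives were edgeR 4.0.16 and DESeq2 1.42.0 on recovered reads, TPM, FPKM, other scalings, pseudocounts and filters, a replicate block, and leaving out each library.

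The members and lists were chosen with earlier results of these data known. The genes described in depth were the sensors, factors and their targets and, per comparison, the 6 members and 6 other pathway genes with the smallest p. Counts of chac1 were not analysed here, and sequences were not used here. The fish numbers were not taken as pairs.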

Additional observations from a re-analysis of the deposited data

How the results depend on the processing

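With 2 or 3 libraries a group, power was low, and leaving out 1 of 2 leaves a single library that is assumed to vary like the others. All genes past the threshold for high-fat diet against normal diet numbered 0 in every alternative run, while the authors' deposited result had 60. For high-fat diet + CACF against normal diet, the 31 became 14 in TPM, 14 in FPKM, 52 with robust moderation, 2 with the compared groups only, 4 with edgeR and 671 with DESeq2. For high-fat diet + CACF against high-fat diet, the 3 became 1 in TPM, 1 in FPKM, 5 with robust moderation, 0 with the compared groups only (3248 at an unadjusted p under 0.05), 0 with edgeR (3101) and 965 with DESeq2. The cause was not tested. With each library left out in turn, these counts ran from 0 to 0, 0 to 372 and 0 to 154, the members past the threshold from 0 to 0, 0 to 1 and 0 to 0, and the members' median from -0.10 to 0.17, -0.04 to 0.33 and 0.02 to 0.36, in the order of high-fat diet against normal diet, high-fat diet + CACF against normal diet and high-fat diet + CACF against high-fat diet. Without both libraries that stood apart, an alternative chosen after seeing the data, the 31 became 5. In TPM the members' median was 0.33 for high-fat diet + CACF against normal diet (all genes: 0.19) and 0.41 for high-fat diet + CACF against high-fat diet (all genes: 0.16). Same-numbered fish of different groups deviated from their group means together, with correlations of 0.18 to 0.42. In a group of 2 libraries the 2 deviations are mirror images, so these correlations are not separate observations. The groups share only 2 numbers and the labels do not say what a number marks, so the pairing was not taken as given. Number 1 occurs only in the normal diet, so a fit with the number as a replicate block gives that library no weight in the comparisons. The members' medians with the block, 0.17, 0.33 and 0.16, equal those without normal diet fish 1. With the number as a replicate block, 0 members passed in any comparison (2, 8 and 2 at an unadjusted p under 0.05), while all genes past the threshold numbered 0, 112 and 705. At that p were 1353 of 20906 genes for high-fat diet against normal diet. The share of all genes is not given here for the other 2 comparisons, so their 8 and 2 cannot be set against it. Of the values of single named genes under the alternatives, 1056 kept direction and call, 80 lost their direction without a call and 1, pdia6, passed.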
